A study of Mus musculus with 8 samples.

Results

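The genes described here are the 37 genes carried by mouse mitochondrial DNA, chosen by symbol (every gene whose symbol starts with mt-) from 38924 genes in the deposited tables. They comprise 13 mRNAs, 2 rRNAs and 22 tRNAs. They were read in RiboTag libraries of spinal cord, in which an anti-HA antibody pulls down cytosolic ribosomes whose large-subunit protein Rpl22 carries an HA tag. The series asked which mRNAs cholinergic cells, motor neurons among them, had on their ribosomes after the sciatic nerve of 1 leg was crushed, and used mice without Cre as negative controls.

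The 8 libraries fell into 4 groups of 2 mice by title. Cre crushed mice (animals 35 and 52) carried Rpl22 +/- and Chat +/-, where Chat-Cre switches the tag on, and had a crushed nerve. No-Cre crushed mice (51 and 58) carried Rpl22 +/- and Chat +/+ and had the same surgery. Cre uncrushed mice (10 and 3) and no-Cre uncrushed mice (4 and 6) were the groups without crush. All groups shared the wild-type Gars+/+ genotype, a heterozygous RiboTag allele (Rpl22 +/-) and the strain background B6.CgxB6.129. The genotype entry went against the title for Cre uncrushed animal 3 (Chat +/+) and no-Cre uncrushed animal 4 (Chat +/-), and the titles were followed. Animal 35 was 18 weeks old, the other crushed mice 9 weeks and all uncrushed mice 8 weeks, so crush and age cannot be told apart. A number of unstated meaning stands in the title of every uncrushed library and of no crushed library. How long after crush the cords were taken is not stated in the sources used here. Whole cords were used after crush on 1 side, so motor neurons of the uninjured side and of other levels are in every crushed library.

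Mitochondrial DNA is transcribed from both strands into long precursors, which are cut mostly at the tRNAs that lie between the mRNAs and rRNAs. The mRNAs encode membrane subunits of respiratory complexes I, III, IV and V. The rRNAs form the core of the mitochondrial ribosome, which translates these mRNAs inside the organelle and holds no Rpl22. The mitochondrial mRNAs are therefore not translated by the tagged ribosome, and libraries without Cre give a level to compare with. How mitochondrial RNA came into the precipitates was not tested.

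The tRNA genes shown were picked because they span the lengths of the class, from mt-Ts2 (serine, 59 bases) through mt-Tf (phenylalanine, 68 bases) to mt-Tl1 (leucine, 75 bases). The pair mt-Atp8 and mt-Atp6 is shown because the reading frames share 43 bases, in capitals. The first 90 bases of mt-Nd3 are shown because its mRNA alone passed the test after crush, and its start codon, in capitals, is not ATG. All are from GENCODE M21 transcripts of GRCm38, 5′ to 3′, whose length equalled the deposited gene length for 37 of 37 genes.
mt-Ts2: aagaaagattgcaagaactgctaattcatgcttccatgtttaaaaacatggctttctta
mt-Tf: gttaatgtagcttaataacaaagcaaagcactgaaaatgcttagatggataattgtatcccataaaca
mt-Tl1: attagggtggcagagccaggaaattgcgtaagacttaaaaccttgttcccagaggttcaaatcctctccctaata
mt-Atp8 end: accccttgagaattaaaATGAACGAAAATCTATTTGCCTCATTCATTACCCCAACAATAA
mt-Atp6 start: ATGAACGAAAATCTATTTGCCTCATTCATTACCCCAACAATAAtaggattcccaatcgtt
mt-Nd3 start: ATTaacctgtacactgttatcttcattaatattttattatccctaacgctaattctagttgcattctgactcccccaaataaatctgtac

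In the same annotation 12 of the mRNAs and 14 of the tRNAs are read from the heavy-strand precursor, and mt-Nd6 with 8 tRNAs from the light-strand precursor. The reading frames of mt-Nd4l and mt-Nd4 share 7 bases. Those of mt-Nd5 and mt-Nd6 share 14 bases on opposite strands. Whether the authors counted by strand is not stated, so reads in these overlaps may have been split between neighbours. The sequences of mt-Co3, mt-Nd4 and mt-Cytb, 3 of the 13 mRNAs, stop at a bare T, an incomplete stop codon that the poly(A) tail is known to finish. Of 9 predicted nuclear genes with mitochondrial sequence looked up, 3 were found (Gm13339, Gm13340 and Gm13341), with at most 9.58 expected counts in any library. The others were not found, so how many reads came from nuclear copies in all cannot be told.

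None of the 22 tRNAs had a count in any library. The deposited effective length, which is the number of positions at which a fragment could start, was 0 for each of them in all 8 libraries. Their lengths run from 59 to 75 bases. Another 703 genes of that length range also had effective length 0 and no count, and the shortest gene with any count was 93 bases long. Among all 3686 genes with effective length 0 in every library, 80 had a count, so that value alone did not exclude one. As no gene of tRNA length had a count, the tables hold no measurement of mitochondrial tRNAs, and no limit on their level can be given. The 13 mRNAs and 2 rRNAs all passed the filter on low counts and are described below.

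Library totals ran from 4826979 to 11522721 expected counts, and the no-Cre libraries were the 4 smallest. Summed levels of 7 motor neuron markers (Chat, Slc5a7, Prph, Mnx1, Chodl, Slc10a4, Isl1) were 1694 to 2062 CPM (counts scaled for library size) with Cre and 63.2 to 163 without, which matched the titles in all 8 libraries, the contradictory pair included. Here CPM rests on totals scaled by the trimmed mean of M-values (TMM), so that CPM values of a library do not add up to a fixed total, and 3 counts correspond to 0.190 to 1.17 CPM. Replicates varied less with Cre (biological coefficient of variation 0.202) than without (0.322). Nothing says how RNA was selected before sequencing, which bears on how much rRNA a library can hold.

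Mitochondrially encoded RNA made up a small share of the counts with Cre and a large one without. The 13 mRNAs held 0.650% and 1.04% of all counts in Cre crushed animals 35 and 52, and 3.12% and 1.65% in Cre uncrushed animals 10 and 3. Without Cre they held 10.1% and 7.14% in crushed animals 51 and 58, and 11.6% and 15.2% in uncrushed animals 4 and 6. The 4 groups did not overlap, and their order was Cre crushed (0.843% ± 0.273, SD, n = 2), Cre uncrushed (2.39% ± 1.04), no-Cre crushed (8.64% ± 2.12) and no-Cre uncrushed (13.4% ± 2.53). The Cre uncrushed mean was 2.83 times the Cre crushed mean, and the no-Cre uncrushed mean 1.55 times the no-Cre crushed mean. Counting error is small beside these gaps, since the widest 95% Wilson interval reached 0.0442 percentage points to either side, an interval that covers counting error only.

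The rRNAs mt-Rnr1 (12S) and mt-Rnr2 (16S) varied more than the mRNAs. Together they held 1.61% and 4.68% of counts in Cre crushed animals 35 and 52, and 5.53% and 2.33% in Cre uncrushed animals 10 and 3, so that these 2 groups overlapped. Without Cre they held 11.5% in crushed animal 51 and 39.9% in crushed animal 58, against 48.2% and 32.7% in uncrushed animals 4 and 6. The shares of the no-Cre groups overlapped as well, and every no-Cre library stood above every Cre library. In no-Cre uncrushed animal 4 the mRNAs and rRNAs together were 59.8% of all counts, and in Cre crushed animal 35 they were 2.26%.

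**Figure D1:**
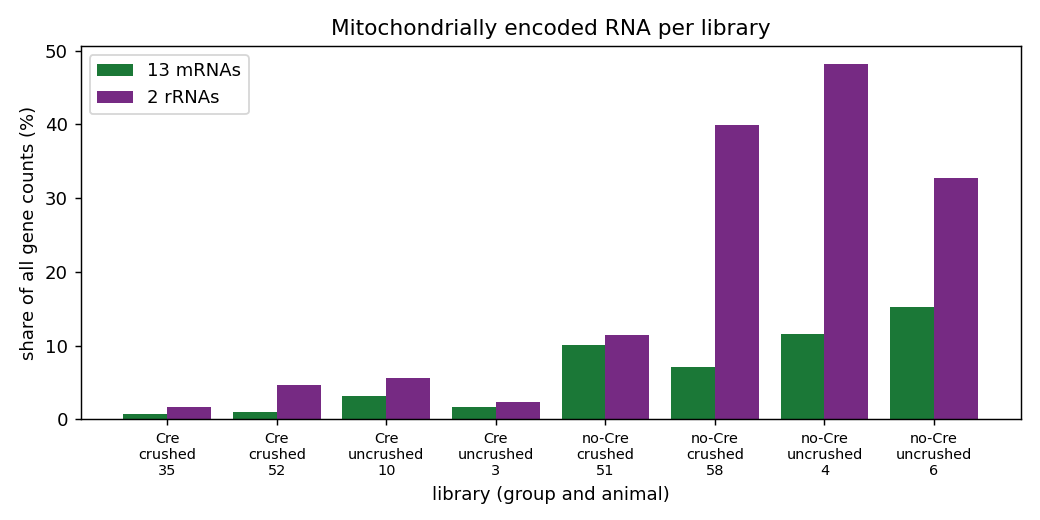
Share of all expected counts, in percent, held by the 13 mitochondrial mRNAs (green) and the 2 rRNAs (purple) in each of the 8 libraries, 1 bar per library and class. The mRNA bars rise from 0.650% in Cre crushed animal 35 to 15.2% in no-Cre uncrushed animal 6, and the rRNA bars of no-Cre crushed animals 51 and 58 stand at 11.5% and 39.9%.

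Because the classes did not move in step, the rRNA counts per mRNA count differed between animals of the same group. They were 2.48 and 4.52 in Cre crushed animals 35 and 52, and 1.77 and 1.41 in Cre uncrushed animals 10 and 3. They were 1.13 and 5.59 in no-Cre crushed animals 51 and 58, and 4.15 and 2.15 in no-Cre uncrushed animals 4 and 6. Both Cre crushed libraries stood above both Cre uncrushed libraries, while the 2 no-Cre crushed libraries lay on either side of the no-Cre uncrushed pair. The 12S and 16S rRNAs come from the same stretch of precursor, and per unit of effective length mt-Rnr1 was 0.646 to 1.05 times mt-Rnr2. This ratio was lowest in Cre uncrushed animal 3 and highest in no-Cre uncrushed animal 4, and the 4 Cre libraries (0.646 to 0.731) lay below the 4 no-Cre libraries (0.758 to 1.05).

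With Cre and no crush, all 13 mRNAs and both rRNAs had lower CPM than in uncrushed libraries without Cre. CPM is relative to the other RNA of a library. Less mitochondrial RNA and more other RNA in the Cre precipitates therefore cannot be told apart, here and in the crushed comparison. Over all 15208 genes tested, 21.9% were called lower in this comparison at an adjusted p of 0.05 (edgeR), and in 35.0% the Cre pair lay below the no-Cre pair without overlap. The median log2 fold change of the 13 mRNAs was -3.08, with a range of -3.67 to -2.58, beside a median of -0.03 over all genes. Within this range mt-Nd6 and mt-Nd2 lay at the low end and mt-Co3 and mt-Cytb at the high end.

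The 7 mRNAs of complex I, the NADH dehydrogenase that feeds electrons into the respiratory chain, include mt-Nd3. Its levels were 163 (animal 10) and 71.4 CPM (animal 3) with Cre, and 1109 (animal 4) and 1231 CPM (animal 6) without. It was lower by log2 -3.32 ± 0.39 (approximate SE, n = 2 per group, adjusted p = 0.000133), and the groups did not overlap. The light-strand mRNA mt-Nd6, also of complex I, had 974 and 395 CPM with Cre and 8485 and 8950 CPM without. Its log2 fold change was -3.67 ± 0.47 (adjusted p = 0.000218), the lowest of the 13, next to -3.66 ± 0.55 for mt-Nd2.

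Complex III has a single mitochondrial subunit, cytochrome b, encoded by mt-Cytb. Its mRNA had 2787 and 1263 CPM with Cre and, in animals 4 and 6, 15224 and 9055 CPM without. The log2 fold change was -2.58 ± 0.49 (adjusted p = 0.00186), the smallest in size among the mRNAs. In complex IV, cytochrome c oxidase, mt-Co1 encodes the catalytic subunit. It had 4025 and 2084 CPM with Cre and 29528 and 19608 CPM without, a log2 fold change of -3.01 ± 0.43 (adjusted p = 0.000425). In complex V, the ATP synthase, mt-Atp6 encodes the proton channel subunit. It had 1805 and 771 CPM with Cre and 14068 and 16413 CPM without, a log2 fold change of -3.56 ± 0.49 (adjusted p = 0.000318). In each of these genes the Cre pair lay below the no-Cre pair.

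The rRNAs showed the same direction with a larger error. In uncrushed animals mt-Rnr1 had 16231 and 5759 CPM with Cre and 339156 and 147892 CPM without (log2 fold change -4.47 ± 0.97, adjusted p = 0.00402). The 16S rRNA mt-Rnr2 had 42880 and 16002 CPM with Cre and 582603 and 306668 CPM without (-3.92 ± 0.91, adjusted p = 0.00573). Leaving out animals 3 and 4, whose genotype entries contradict the titles, ended the calls of mt-Rnr1 (-3.14, adjusted p = 0.132), mt-Rnr2 (-2.79, adjusted p = 0.164) and mt-Cytb (-1.66, adjusted p = 0.0886). In that fit 12 of the 13 mRNAs were called lower, with a median of -2.47.

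**Figure D2:**
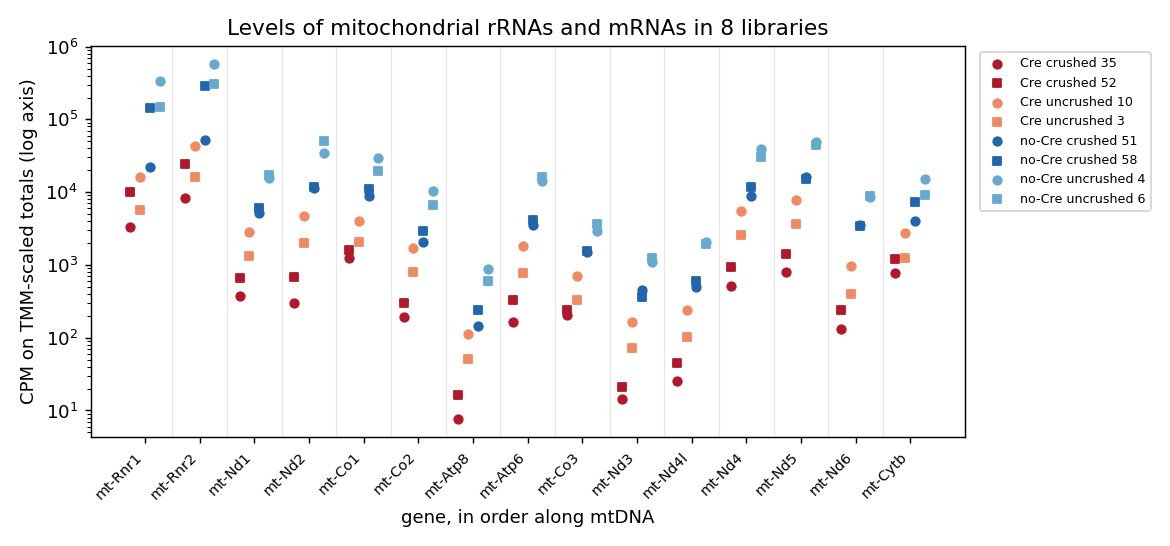
Level of each mitochondrial rRNA and mRNA, in CPM on TMM-scaled totals (log axis), with genes in order along mitochondrial DNA and 1 point per library. The Cre crushed points (dark red) lie lowest for the 13 mRNAs, at 14.4 and 21.1 CPM for mt-Nd3, and the no-Cre uncrushed points (light blue) highest.

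After crush the contrast between Cre and no-Cre libraries had the same direction. All 13 mRNAs and both rRNAs were called lower with Cre, where the background of genes called lower was 21.3% and that of genes with the Cre pair below the no-Cre pair 40.3%. The mRNA median was -3.83, with a range of -4.54 (mt-Nd2) to -2.53 (mt-Cytb), beside -0.08 over all genes. A fit of only the groups compared also called 13 of 13 lower, both without crush (background 21.0%) and with it (24.9%). The complex I mRNA mt-Nd3 had 14.4 and 21.1 CPM in Cre crushed animals 35 and 52 and 449 and 368 CPM in no-Cre crushed animals 51 and 58. It was lower by log2 -4.52 ± 0.41 (adjusted p = 6.47e-05). The level of mt-Co1 was 1226 and 1627 CPM with Cre and 8954 and 11213 CPM without (-2.82 ± 0.43, adjusted p = 0.000583).

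For the rRNAs the crushed comparison rested on few libraries. In mt-Rnr1 the Cre pair had 3329 and 10034 CPM and the no-Cre pair 22220 and 143862 CPM (-3.64 ± 0.93, adjusted p = 0.00972). In mt-Rnr2 they had 8437 and 24769 CPM against 52941 and 286218 CPM (-3.35 ± 0.88, adjusted p = 0.0112). Without no-Cre crushed animal 58 these became -1.68 and -1.62 (adjusted p = 0.0925 and 0.0849), and without Cre crushed animal 35 the adjusted p was 0.0887 and 0.106.

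Crush in Cre mice came with lower levels of the mitochondrial mRNAs, of which 1 passed the test. This was mt-Nd3, which fell by 2.72 ± 0.38 on the log2 scale (adjusted p = 0.0243), from 163 and 71.4 CPM in uncrushed animals 10 and 3 to 14.4 and 21.1 CPM in crushed animals 35 and 52. Over all genes 0.0329% were called lower and 0.0395% higher, or 0.0723% in either direction. For all 13 mRNAs the crushed pair lay below the uncrushed pair, which 23.9% of all genes did, and each was under an unadjusted p of 0.05, as were 9.34% of all genes. Of the 13 mRNAs, 12 are read from the heavy-strand precursor, so they are not separate observations, here or in the other comparisons. All 13 were higher in animal 10 than in animal 3, and in animal 52 than in animal 35. Their median log2 fold change was -2.34, beside 0.03 over all genes.

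The mRNAs ranged from -2.77 to -1.05. The lowest values were those of mt-Atp8 (-2.77 ± 0.46, adjusted p = 0.0807), mt-Nd2 (-2.76 ± 0.52, adjusted p = 0.108) and mt-Nd3. The level of mt-Nd2 was 4662 and 2029 CPM in uncrushed animals 10 and 3, and 300 and 691 CPM in crushed animals 35 and 52. The value of mt-Atp6 was -2.38 ± 0.46 (adjusted p = 0.120) and that of mt-Nd6 -1.89 ± 0.43 (adjusted p = 0.174). The smallest differences belonged to mt-Co3 (-1.22 ± 0.35), mt-Co1 (-1.10 ± 0.41, adjusted p = 0.431) and mt-Cytb (-1.05 ± 0.46, adjusted p = 0.522). The complex IV mRNAs were thus spread over the range, with mt-Co2 at -2.34 ± 0.43 (adjusted p = 0.102).

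For the rRNAs no difference between crushed and uncrushed Cre libraries was detected. The values of mt-Rnr1 were 3329 and 10034 CPM in crushed animals and 16231 and 5759 CPM in uncrushed ones, and the groups overlapped. The log2 fold change for crush was -0.72 ± 0.84 (adjusted p = 0.869) for mt-Rnr1 and -0.83 ± 0.81 (adjusted p = 0.833) for mt-Rnr2. Leaving out 1 library at a time moved the first of these between -1.72 and 0.21.

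How many mRNAs passed the test for crush with Cre depended on the fit. Fitted to the 4 Cre libraries alone, 6 were called lower (mt-Nd2, mt-Co2, mt-Atp8, mt-Nd3, mt-Nd4 and mt-Nd5), where 0.558% of all genes were. DESeq2 called 11 lower, beside 0.400% of all genes, and the fit without a filter on low counts 13, beside 0.336%. Library size alone as the scaling called 0. The call of mt-Nd3 was lost without animal 35 (-2.47, adjusted p = 0.231), 52 (-3.01, adjusted p = 0.111) or 10 (-2.01, adjusted p = 0.122), and, among libraries outside the comparison, without no-Cre uncrushed animal 4 or 6 (adjusted p = 0.0507 and 0.0534). The mRNA median of -2.34 became -1.64 without Cre uncrushed animal 10, -2.78 without Cre uncrushed animal 3, -2.74 without animal 52 and -1.96 without animal 35, the only mouse of 18 weeks.

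Without Cre, where no tagged ribosomes should be present, the mitochondrial mRNAs were also lower after crush, and 0 of 13 passed the test. The background was 0.0526% of genes called lower and 0.0197% higher, or 0.0723% in either direction, and 0.0149% lower in the fit of the no-Cre libraries alone, which also called 0 of 13. All 13 were under an unadjusted p of 0.05, as were 12.8% of all genes. DESeq2 called 11 lower, beside 0.644% of all genes, and the fit without a filter on low counts 13, beside 0.788%. For all 13 the crushed pair lay below the uncrushed pair, as for 19.0% of all genes. The median log2 fold change was -1.55, with a range of -1.99 (mt-Atp6) to -1.09 (mt-Co3) and a smallest adjusted p of 0.218 (mt-Nd4l), beside a median of -0.03 over all genes.

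Single genes without Cre show the size of this gap. The levels of mt-Nd3 were 449 and 368 CPM in crushed animals 51 and 58 against 1109 and 1231 CPM in uncrushed animals 4 and 6 (-1.52 ± 0.36, adjusted p = 0.263). Those of mt-Co1 were 8954 and 11213 CPM against 29528 and 19608 CPM (-1.28 ± 0.41, adjusted p = 0.297). The rRNA values were -1.55 ± 0.86 for mt-Rnr1 (adjusted p = 0.472) and -1.39 ± 0.82 for mt-Rnr2 (adjusted p = 0.497), where crushed animal 58 (143862 CPM of mt-Rnr1) lay just below uncrushed animal 6 (147892 CPM). These rRNA values depended on single libraries. Without crushed animal 58 they were -3.45 and -3.07, without crushed animal 51 -0.75 and -0.63, without uncrushed animal 4 -0.84 and -0.87, and without uncrushed animal 6 -2.01 and -1.76. In bulk samples such as these, fewer cells of a type and less RNA per cell cannot be told apart.

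**Figure D3:**
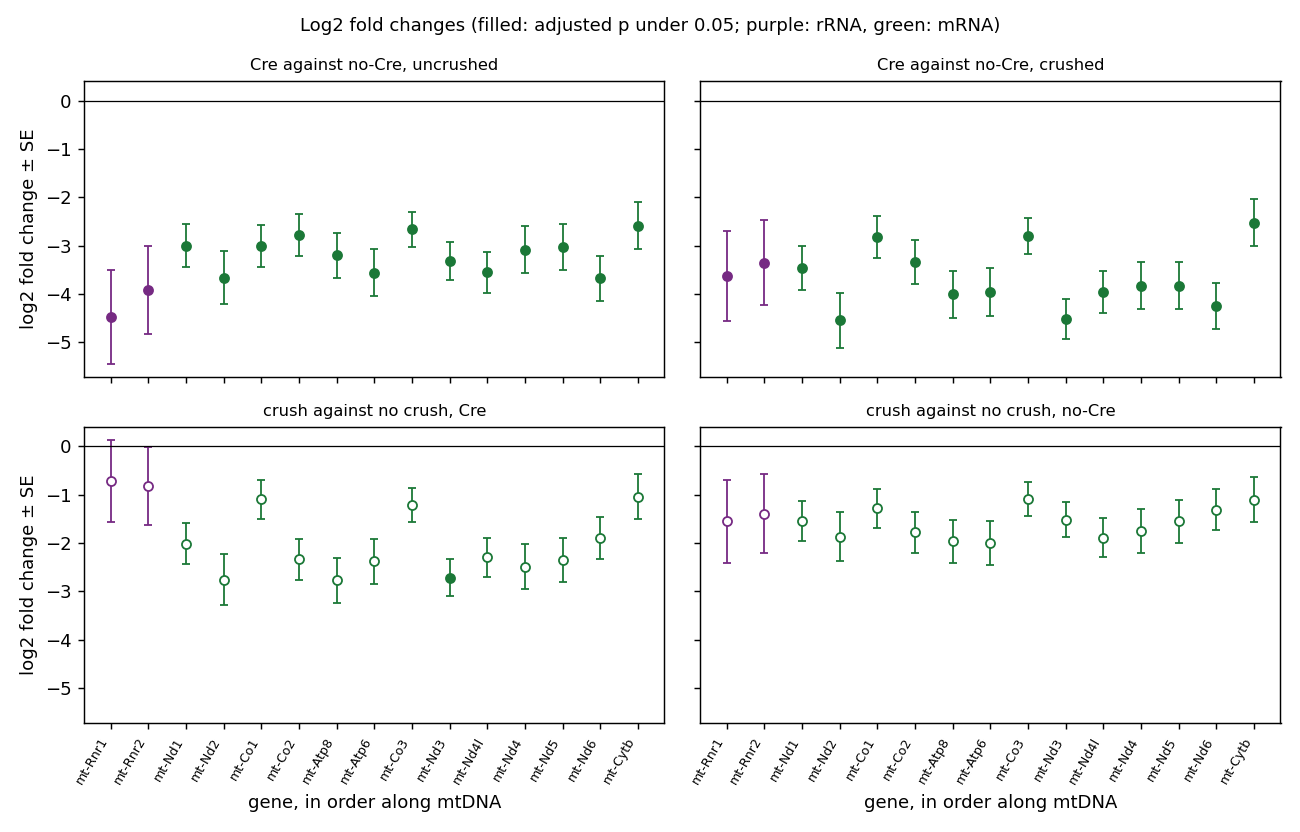
Log2 fold change with its approximate SE for each mitochondrial rRNA (purple) and mRNA (green), in order along mitochondrial DNA, in 4 comparisons that share libraries. Filled points have an adjusted p under 0.05: all 15 genes in both comparisons of Cre with no-Cre, mt-Nd3 alone for crush with Cre, and none for crush without Cre.

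The test of the difference itself, crush with Cre minus crush without, called none of the mitochondrial genes. It called 0 of all 15208 genes (0.0%), while 905 had an unadjusted p under 0.05 and DESeq2 called 15. The median over the 13 mRNAs was -0.56, with 11 below 0, and leaving out Cre uncrushed animal 10 turned it to 0.18. The most negative value was that of mt-Nd3, at -1.20 ± 0.51 (adjusted p = 0.830), the only mRNA under an unadjusted p of 0.05. Next came mt-Nd2 at -0.88 ± 0.70. The rRNAs were on the other side, at 0.83 ± 1.19 for mt-Rnr1 and 0.56 ± 1.14 for mt-Rnr2. Without Cre crushed animal 52 both turned, to -0.17 and -0.41, and without no-Cre crushed animal 51 mt-Rnr2 turned to -0.19. Without no-Cre crushed animal 58 they were 2.74 and 2.25. A lower level after crush that is particular to Cre libraries was therefore not detected for any mitochondrial gene.

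The scaling of the libraries bears on all of these values, because mitochondrial reads made up 47.1% to 59.8% of the counts in 3 libraries. With library size alone the median of all genes moved to 0.65 for Cre against no-Cre in uncrushed animals, 0.47 for crush with Cre and 0.94 for crush without Cre. The mRNA medians moved with it, to -2.40, -1.87 and -0.60. Taken relative to all genes, the mRNA medians were then -3.04, -2.33 and -1.53, next to -3.05, -2.37 and -1.52 under TMM. A change of scaling moves all genes of a comparison by about the same amount, so this near equality follows from the subtraction. It is no test of the scaling.

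The make-up of the mitochondrial mRNA pool, the share of each mRNA in the summed counts of the 13, removes the total level and the scaling. It has no test here, and the shares add up to 100%, so that a rise in one entails a fall elsewhere. The share of mt-Co1 was 25.9% and 21.1% in Cre crushed animals 35 and 52, and 9.29% to 14.6% in the other 6 libraries. That of mt-Cytb was 16.3% and 15.4%, against 4.29% to 9.49%. That of mt-Co3 was 4.28% and 3.12%, against 1.30% to 2.27%. In these 3 genes both Cre crushed libraries lay above every other library.

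The opposite pattern was clearest for mt-Nd2, with 6.34% and 8.97% in the Cre crushed libraries and 13.1% to 24.0% in the others. The shares of mt-Nd5 (17.0% and 18.5%), mt-Nd4 (at most 12.1%), mt-Atp6 (3.48% and 4.29%), mt-Nd4l (0.541% and 0.583%), mt-Nd3 (0.304% and 0.274%) and mt-Atp8 (0.159% and 0.210%) were also below those of all other libraries. In mt-Nd1, mt-Co2 and mt-Nd6 the Cre crushed libraries lay within the range of the others. In the no-Cre crushed libraries the mt-Co1 shares were 13.5% and 14.6%, and the mt-Nd2 shares 17.1% and 15.3%. Whether the make-up differs between groups beyond the spread of pairs was not tested.

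**Figure D4:**
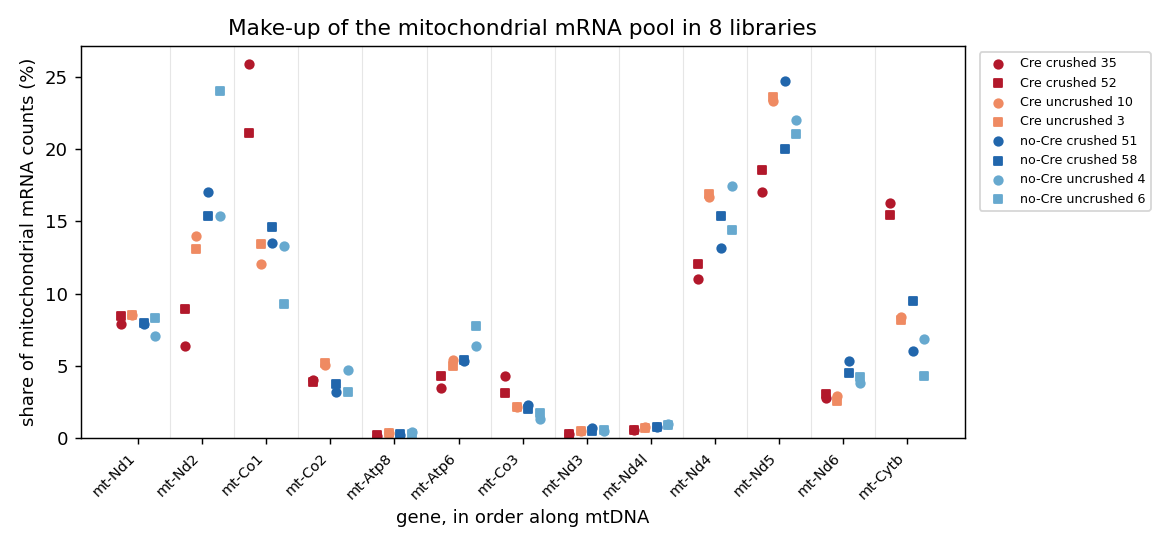
Share of each mRNA in the summed expected counts of the 13 mitochondrial mRNAs, in percent, for 8 libraries, with genes in order along mitochondrial DNA. Both Cre crushed libraries (dark red) lie above all others for mt-Co1, mt-Co3 and mt-Cytb and below all others for mt-Nd2, mt-Nd4 and mt-Nd5.

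Per unit of length, in the deposited length-scaled unit TPM, mt-Nd2 ranked highest of the 13 mRNAs in all 6 libraries other than the Cre crushed pair. In Cre uncrushed animals 10 and 3 its level was 7643 and 4213 TPM. In Cre crushed animals 35 and 52 it was 802 and 1887 TPM, rank 8 and 5, and mt-Co1 (2062 and 2799 TPM) and mt-Cytb (1836 and 2889 TPM) held the ranks 1 and 2. The mRNA of mt-Nd3 ranked 12 or 13 in every library, from 191 TPM in Cre crushed animal 35 to 6536 TPM in no-Cre crushed animal 51. In the Cre libraries mt-Nd5, the longest of the 13, ranked 2 without crush and 3 with it.

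Neighbouring genes differed in estimated level per length, also where they share an mRNA. The mt-Atp8 level was 0.398 to 0.694 times that of mt-Atp6, although the pair shares 1 mRNA. The effective length of mt-Atp8, a frame of 204 bases, was only 44.7 positions in Cre crushed animal 35, which makes its TPM sensitive to the fragment length model. The mt-Nd4l level was 0.363 to 0.601 times that of mt-Nd4, with which it also shares an mRNA. The light-strand mt-Nd6 was 0.509 to 1.06 times its heavy-strand neighbour mt-Nd5. This ratio was 0.509 and 0.589 with Cre and no crush, 0.782 and 0.795 with Cre and crush and 0.818 to 1.06 without Cre.

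Nuclear genes for the same complexes went the other way between Cre and no-Cre libraries. These genes are translated on cytosolic ribosomes, which can carry the tag. Of 76 nuclear subunits of complexes I to V tested, 65 were higher with Cre in uncrushed animals and 0 lower, where 20.6% of all genes were called higher, and their median log2 fold change was 1.38. In crushed animals 66 were higher and 0 lower (background 21.6%), with a median of 1.54. In complex I, 31 of 36 were higher without crush, in complex III 8 of 9, in complex IV 10 of 12 and in complex V 14 of 15. In complex II, which has no mitochondrially encoded subunit, 2 of 4 were higher. The complex IV subunit Cox4i1 had 485 and 424 CPM in Cre uncrushed and 136 and 130 CPM in no-Cre uncrushed libraries (1.78 ± 0.31, adjusted p = 0.00125), the reverse of mt-Co1. The complex V subunit Atp5b was at 1.50 ± 0.30 (adjusted p = 0.00268), and mt-Atp6 at -3.56 in the same comparison.

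Crush called none of the nuclear subunits. Of the 76 tested, edgeR called 0 with Cre, where 13 had an unadjusted p under 0.05 (9.34% of all genes) and DESeq2 called 1 higher (0.757%). Without Cre it called 0, where 18 had an unadjusted p under 0.05 (12.8% of all genes) and DESeq2 called 0 (0.228% higher and 0.644% lower over all genes). Their medians with and without Cre were -0.40 and -0.50, beside -2.34 and -1.55 for the 13 mitochondrial mRNAs. Atp5b, at 1286 and 1098 CPM in Cre crushed and 485 and 688 CPM in Cre uncrushed libraries, had a log2 fold change of 1.02 ± 0.30 (adjusted p = 0.285). Markers of mitochondrial mass were likewise higher with Cre, 8 of 10 without crush (20.6% of all genes) and 9 of 10 with it (21.6%). They included Hspd1, a matrix chaperonin (1.43 ± 0.26 in uncrushed animals), and Cs, the citrate synthase (1.21 ± 0.23), and for crush with Cre 0 of 10 were called by edgeR, at an unadjusted p under 0.05 or by DESeq2.

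Nuclear genes that make, process and translate mitochondrial RNA were mixed. Of 64 tested, 18 were higher and 4 lower with Cre in uncrushed animals, and 15 higher and 4 lower in crushed animals. Over all genes 20.6% were called higher and 21.9% lower without crush, and 21.6% and 21.3% with it. The higher calls thus lie near the share over all genes or somewhat above it, and the lower calls lie below theirs. For crush edgeR called 0 of them with Cre (1 unadjusted, 0 by DESeq2) and 0 without (9 unadjusted, 0 by DESeq2). None of the 7 transcription genes was called higher in uncrushed animals: Tfam, which packages mitochondrial DNA and starts its transcription, was at 0.38 ± 0.31 (adjusted p = 0.345), and Mterf3, which lowers mitochondrial transcription, was lower at -1.31 ± 0.30 (adjusted p = 0.00519). Of 21 processing and stability genes 8 were higher and 1 lower, among them Grsf1, a protein of mitochondrial RNA granules (1.80 ± 0.24, adjusted p = 0.000294), and Lrpprc, which stabilises mitochondrial mRNAs (0.77 ± 0.27, adjusted p = 0.0418). Of 14 RNA modification genes 2 were higher, no more than the 20.6% of all genes. Of 11 translation factors 6 were higher and 1 lower, with the elongation factor Tufm at 1.82 ± 0.41 (adjusted p = 0.00464). Of 11 genes of mitochondrial DNA maintenance 2 were higher and 1 lower, also no more than the share over all genes.

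The sum of 4 RNAs retained in the nucleus (Malat1, Neat1, Meg3 and Snhg11), known as noncoding, moved with Cre in the same direction as the mitochondrial RNAs. It was 4055 to 7567 CPM in the 4 Cre libraries and 38950 to 87570 CPM in the 4 no-Cre libraries, and all 4 genes were called lower in both comparisons, beside 21.9% of all genes without crush and 21.3% with it. Malat1 was at log2 -3.59 ± 0.49 in uncrushed animals, close to mt-Atp6 (-3.56). For crush with Cre edgeR called 0 of the 4 (2 unadjusted, beside 9.34% of all genes, and 2 higher by DESeq2, beside 0.757%), and their median was 0.75, opposite in sign to the mitochondrial mRNAs.

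Markers of other spinal cord cells were also lower with Cre. All 6 oligodendrocyte, 6 astrocyte and 6 microglial markers were called lower in uncrushed animals, with 5 of 6 endothelial and pericyte and 4 of 5 interneuron markers, where 21.9% of all genes were called lower. Of 3 sensory ganglion markers tested, 1 was higher and 1 lower. Summed oligodendrocyte markers were 1079 and 1793 CPM in Cre crushed animals 35 and 52, 701 to 866 CPM in Cre uncrushed, 4405 to 6198 CPM in no-Cre crushed and 6626 to 7650 CPM in no-Cre uncrushed libraries. Summed astrocyte markers were 571 to 711, 417 to 434, 2752 to 3343 and 1847 to 2844 CPM in that order, and microglial markers 9.30 to 11.2, 3.77 to 4.19, 89.8 to 112 and 45.2 to 72.9 CPM. Of these lists, Tmem119 alone was at 0 in a library, of the Cre uncrushed group. Within Cre libraries the glial sums were higher after crush, while the mitochondrial mRNAs were lower. Of the 18 glial markers edgeR called 0 for crush with Cre, while 10 had an unadjusted p under 0.05 (9.34% of all genes) and DESeq2 called 4 higher (0.757%). The part of these cells, and of RNA that comes down without the tag, in the mitochondrial values was not tested.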

How the data were processed

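Anti-HA precipitates were made from 8 spinal cords, those of the no-Cre mice included, and the RNA in them was sequenced. The authors made gene tables with Bowtie2 2.2.0 and RSEM 1.2.12, per the submitters' processing notes. The deposited expected counts, estimates of reads per gene that are not scaled for depth, were rounded and used for tests. The deposited TPM values, scaled by the authors for effective length and to a fixed total, were used for order among genes. The deposited gene and effective lengths in bases, of the type other per the file headers, served the ratios per length. No source used here names the genome build, annotation or strand setting, and coordinates were therefore left out. Symbols were assigned to 37607 of 38924 gene identifiers (96.6%).

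Counts were fitted with edgeR 4.0.16 in R 4.3.3 by a quasi-likelihood model with 1 mean per title group over all 8 libraries (4 residual degrees of freedom), TMM scaling and filterByExpr (minimum count 10, total 15), which left 15208 genes. Tests were two-sided, with p-values adjusted over all of these genes by Benjamini and Hochberg's method and a threshold of 0.05. The approximate error of a log2 fold change is its size over the root of the F statistic. The comparisons share libraries. Nothing says more of the replicates than separate animal numbers. In the main fit a p-value sets a difference against a spread between libraries estimated over all groups. That spread differed with Cre (biological coefficient of variation 0.202) and without (0.322). The scripts were tested on simulated data. Named members were mt-Rnr1, mt-Rnr2, the markers mt-Nd3 and mt-Co1, mt-Cytb and mt-Atp6 as most abundant of their complexes, mt-Nd6 and any gene called for crush. Other members are named by position in a range, and nuclear genes from the 4 most abundant of each list. The mitochondrial genes and all lists were chosen with earlier results of these data known. The alternatives were DESeq2 1.42.0, its size factors in edgeR, library size alone, scaling without mitochondrial genes, no filter, only the groups compared, without the libraries of contradictory genotype, and without each library in turn. The median of all genes under each was added after seeing the data.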

Additional observations from a re-analysis of the deposited data

How the results depend on the processing

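No paired analysis was possible because the 4 groups have no animal number in common. For Cre against no-Cre, 13 of 13 mitochondrial mRNAs were called lower in crushed animals under all 15 alternatives, and 12 or 13 in uncrushed animals. For crush with Cre the count of 1 became 11 with DESeq2, 13 with no filter, 6 with only the groups compared, 0 with library size alone and 0 to 2 when single libraries were left out. For crush without Cre the count of 0 became 11 with DESeq2 and 13 with no filter, and stayed 0 when single libraries were left out. The cause of these shifts was not tested. The count for the difference was 0 under all 14 alternatives. Among the single genes named by rule, 488 values under an alternative stayed on their side of the threshold, 17 gained a call and 13 lost one. Calls over all genes ranged over 3299 to 6903, 2733 to 7396, 5 to 281, 0 to 1204 and 0 to 87 in the order Cre effect uncrushed, Cre effect crushed, crush with Cre, crush without Cre and difference. With 2 animals a group, the lone library left after leaving its partner out is taken to vary like the other groups. Depth did not limit the mRNAs and rRNAs, whose lowest value was 7.53 CPM for mt-Atp8 in Cre crushed animal 35, where 3 counts are 0.190 CPM.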
